A study of Mus musculus with 12 samples.

Results

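6 of the 248 inflammation-related genes measured by the nanostring approach encode colony-stimulating factors, tissue growth factors or, in 1 case, a growth factor receptor: Csf1, Csf2, Csf3, Flt1, Pdgfa and Areg. They were chosen by gene symbol, and all 6 were on the panel. Their levels were compared between monocytes from blood (MNCs, 6 samples) and the macrophages resident in the liver, the Kupffer cells (KCs, 6 samples), of Balb/C mice, for which the labels name no treatment. Cells of several mice were pooled for each sample (5 by the labels, 4 to 5 by the methods). Magnetic beads against F4/80, a protein on the surface of macrophages, served to sort MNCs after a density gradient of the blood and KCs after digestion of the liver with collagenases. In these pools, fewer cells of a type and less RNA per cell cannot be told apart.

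Colony-stimulating factors are secreted proteins that drive the survival and growth of myeloid cells. CSF1 (M-CSF) maintains monocytes and tissue macrophages, CSF2 (GM-CSF) acts on granulocytes and macrophages, and CSF3 (G-CSF) on neutrophils. PDGFA is a mitogen of mesenchymal cells, known in the liver for its action on stellate cells, and amphiregulin (AREG) is a ligand of the epidermal growth factor receptor linked to tissue repair. FLT1 (VEGFR1) is a receptor of vascular endothelial growth factor, best known in endothelial cells and also present on monocytes and macrophages. The receptors of CSF1, PDGFA and AREG, and FLT1 itself, are receptor tyrosine kinases, which signal through adaptor proteins and a relay of kinases.

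In the mouse genome (GRCm38.p6, RefSeq), Csf1 lies at chr3:107741048-107760469, Csf2 at chr11:54247270-54249899 and Csf3 at chr11:98700183-98703631. Flt1 at chr5:147561604-147726438, Pdgfa at chr5:138976014-139000792 and Areg at chr5:91139599-91148432 share chromosome 5. RefSeq promoters matched 5 of the 6 genes by symbol. The 250 bases before a transcript start listed for the gene are shown, 5′ to 3′ on the strand of the gene, for the 3 genes in which a searched motif was found. They are Areg (plus strand, chr5:91139349-91139598), Flt1 (minus strand, chr5:147726012-147726261) and Csf1 (minus strand, chr3:107760470-107760719). The windows of Areg and Csf1 adjoin the spans given above. That of Flt1 lies inside its span, which ends at 147726438, so that its positions are counted from a start within the gene. Capitals mark matches on either strand to the cyclic AMP response element (CRE, TGACGTCA), the TATA box (TATAAA) or the NF-kB consensus.
Areg: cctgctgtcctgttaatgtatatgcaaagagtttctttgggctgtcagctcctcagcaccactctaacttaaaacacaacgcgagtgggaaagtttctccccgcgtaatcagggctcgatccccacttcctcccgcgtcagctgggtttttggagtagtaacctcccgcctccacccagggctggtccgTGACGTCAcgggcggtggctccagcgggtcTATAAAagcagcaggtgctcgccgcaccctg
Flt1: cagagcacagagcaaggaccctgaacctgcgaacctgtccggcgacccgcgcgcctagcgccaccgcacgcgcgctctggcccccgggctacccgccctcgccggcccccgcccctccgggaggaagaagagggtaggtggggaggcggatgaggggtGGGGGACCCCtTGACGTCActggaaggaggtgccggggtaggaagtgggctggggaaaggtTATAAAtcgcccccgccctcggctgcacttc
Csf1: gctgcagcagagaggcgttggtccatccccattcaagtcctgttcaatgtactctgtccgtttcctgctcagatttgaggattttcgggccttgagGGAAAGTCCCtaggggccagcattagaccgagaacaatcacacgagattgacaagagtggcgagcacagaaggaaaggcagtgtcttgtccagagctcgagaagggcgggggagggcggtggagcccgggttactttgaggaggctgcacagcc
A CRE was found in Areg, from base -61 to -54, and in Flt1, from -81 to -74, and 1.55% of 32841 mouse promoter windows of this length hold one. Both genes also had a TATA box from -31 to -26, a match in 12.4% of windows. NF-kB matches lay from -154 to -145 in Csf1 and from -92 to -83 in Flt1, and 3.90% of windows hold one. The AP-1 motif TGANTCA, held by 6.75% of windows, had no match in these promoters. No 2 matches overlapped, and a match of letters is a description, not a site of binding.

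**Figure D1:**
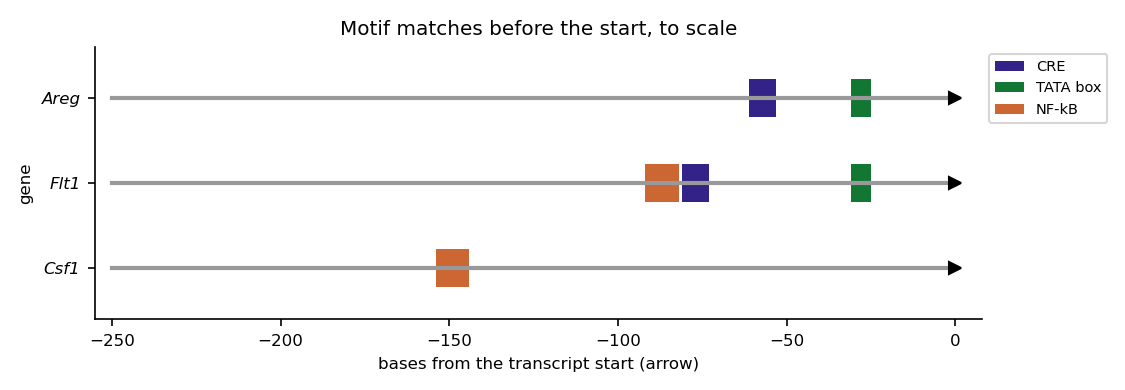
Motif matches in the 250 bases before the transcript start of Areg, Flt1 and Csf1, plotted as distance from the start in bases. Coloured boxes are matches, and the CRE of Areg (-61 to -54) and that of Flt1 (-81 to -74) both lie upstream of a TATA box at -31 to -26.

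The values are normalized counts of reporter molecules. A gene counted below the highest of the 8 negative controls of its lane, here called the background, is listed at that control's count. The listed background was 5 to 27 in MNCs and 7 to 14 in KCs. The counts of the other genes had been multiplied by 1 factor per lane (0.554 to 1.13 in MNCs and 1.30 to 2.17 in KCs), but the listed background had not. Multiplied, it would be 5.63 to 15.7 in MNCs and 11.7 to 30.4 in KCs, so that a gene seen in neither cell type is listed lower in most KC samples. Summed over genes above the background, housekeeping genes included, the depth was 162988 to 348248 counted molecules per MNC sample and 84401 to 145662 per KC sample. KC samples 1 and 6 stood apart from the other KCs: Gapdh, one of the housekeeping genes of the normalization, had 4159 and 4084 normalized counts in them and 2159 to 2741 in the other 4. The housekeeping genes also differed between the cell types, in both directions and without overlap. Mean normalized counts in MNCs and KCs were 1704 and 2971 for Gapdh, 2140 and 2655 for Cltc, 151 and 289 for Pgk1, and 933 and 324 for Gusb.

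4 of the 6 genes, Csf1, Csf2, Flt1 and Pdgfa, were higher in KCs at an adjusted p under 0.05 from limma, and none was lower. Of all 248 genes, 35.1% were called higher in KCs and 21.4% lower. Csf1, Csf2 and Flt1 were also over 2-fold higher, as were 19.8% of all genes. In Csf1 and Flt1 every KC sample was above every MNC sample, as in 25.8% of all genes, and 41.5% of all genes had no overlap in either direction. Areg was detected clearly in 2 of 6 KC samples, and Csf3 in no KC sample. Under other scalings the split of all calls, 87 higher and 53 lower, became 71 and 98 (samples rescaled to the median gene) or 62 and 68 (quantile normalization). With the background multiplied by the factors it was 140 and 48.

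**Figure D2:**
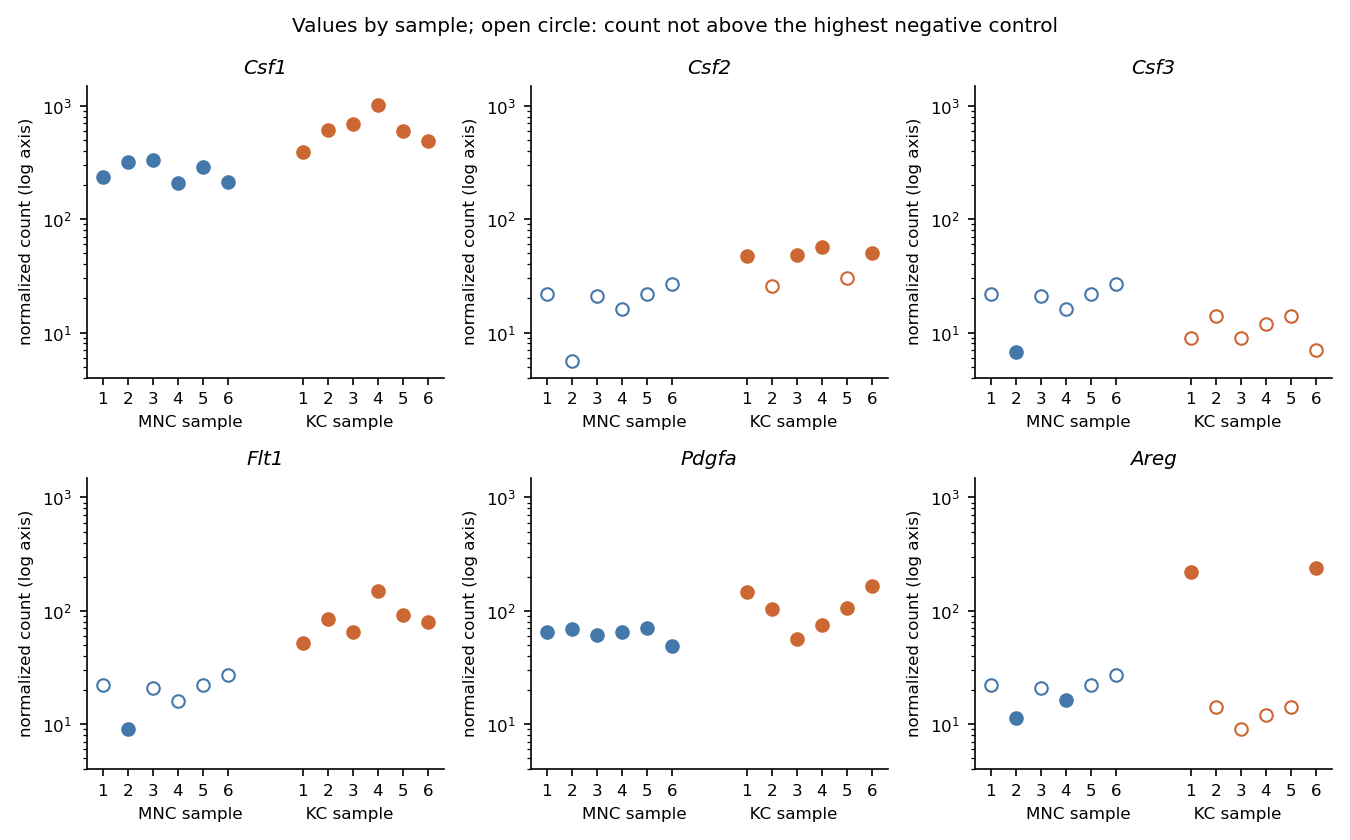
Normalized counts of the 6 genes on a log axis, 1 panel per gene and 1 circle per sample, MNCs in blue and KCs in orange. Open circles are counts not above the highest negative control of the lane. The KC values of Csf1 (390 to 1022) lie above all MNC values, and Areg is split between 2 high and 4 open KC samples.

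Csf1 had 234, 319, 333, 211, 290 and 215 normalized counts in MNC samples 1 to 6. In KC samples 1 to 6 it had 390, 608, 696, 1022, 602 and 488. The cell types did not overlap, and KC sample 4 was the highest and KC sample 1 the lowest of their group. The mean rose from 267 ± 53.7 in MNCs to 634 ± 218 in KCs (SD, n = 6 samples each), 2.31-fold by geometric means (log2 fold change 1.21 with a 95% interval of 0.73 to 1.68, adjusted p = 0.000326 from limma). Csf1 was above the background in all 12 samples, with 231 to 494 counted molecules in each, so that the background does not touch this value. The exact two-sided permutation test gave p = 0.00216, the smallest it can give. Quantile normalization gave the smallest difference among the alternatives, a log2 fold change of 0.75 (adjusted p = 0.00937, range over the alternatives 0.000103 to 0.00937).

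Csf2 stood at 22, 5.63, 21, 16, 22 and 27 normalized counts in MNC samples 1 to 6, and none of these was above the highest negative control. In KC samples 1 to 6 it had 47.0, 25.6, 48.7, 57.4, 30.4 and 50.7 normalized counts. KC samples 2 and 5, with 14 counted molecules each, equalled their highest negative control of 14, and the other 4 were above theirs with 24 to 36 molecules. Taking for each value at the background the larger of its listed and its multiplied level, the ratio of geometric means was 2.44. With all 6 MNC and 2 KC values at the background, it is neither a measured fold nor a limit. The listed values differed by 1.23 on the log2 scale (95% interval 0.52 to 1.93, adjusted p = 0.00564 from limma). The only overlap was that of MNC sample 6, listed at 27 but at most 14.9 after multiplication, with KC sample 2. With every value raised to a common floor of 30.4, the highest background of any lane, the log2 fold change was 0.48 (adjusted p = 0.0218, range over the alternatives 3.65e-05 to 0.0334).

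Csf3 was at the background in all 6 KC samples and in 5 of 6 MNC samples. MNC sample 2 had 6 molecules against a highest negative control of 5. No fold is given, since nearly all its values are those of the negative controls. The listed values gave a log2 fold change of -0.70 (adjusted p = 0.0511 from limma), which turned to 0.69 when the background was multiplied by the factor of the lane (adjusted p = 0.0237, range over the alternatives 0.000705 to 1). A difference in Csf3 was not detectable at this depth.

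**Figure D3:**
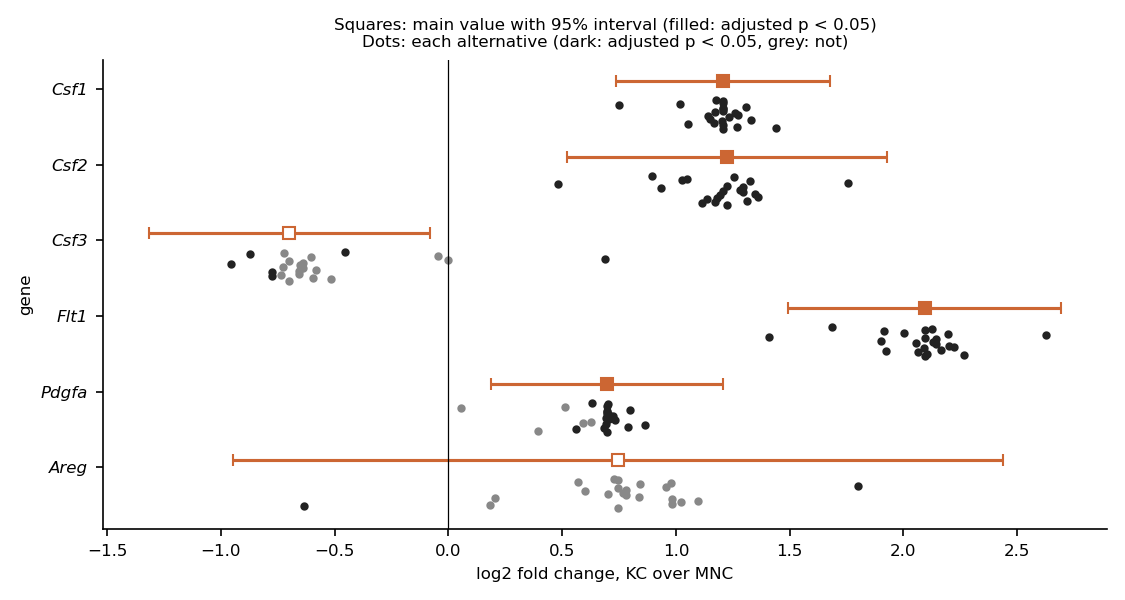
Log2 fold changes of the 6 genes, KCs over MNCs. Squares are the values on the listed data with 95% intervals from limma, filled where the adjusted p was under 0.05, and dots are the alternatives, dark where it was. All dots of Csf1, Csf2 and Flt1 are dark and above 0, while those of Csf3 lie between -0.95 and 0.69.

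Flt1, the gene of the receptor, had 52.2, 84.1, 64.3, 151, 91.3 and 80.3 normalized counts in KC samples 1 to 6, all above the background. In MNCs it was under the background in 5 of 6 samples, and MNC sample 2 had 9.01 normalized counts from 8 molecules. Every KC sample was above every MNC sample, and KC samples 4 and 1 were again the highest and the lowest. The fold on log2(value + 1) was 4.27 (95% interval 2.82 to 6.47, adjusted p = 2.22e-05 from limma), or 2.09 on the log2 scale. The ratio of geometric means without the added 1 was 4.46. In the 5 MNC samples under the background the listed level was already higher than the multiplied one. Since these 5 MNC values are upper limits, the fold may be larger. The exact permutation p was 0.00216. Flt1 is also a marker of endothelial cells, and the other 4 endothelial genes listed for this comparison were not analysed here.

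Pdgfa had 64.3, 68.7, 61.3, 64.4, 71.1 and 48.7 normalized counts in MNC samples 1 to 6, all above the background. In KC samples 1 to 6 it had 147, 104, 56.5, 74.4, 107 and 165. KC samples 6 and 1 were the highest, and all KC samples but sample 3 were above every MNC sample. The mean was 109 ± 41.4 in KCs and 63.1 ± 7.85 in MNCs (SD, n = 6 samples each), a difference of 0.70 on the log2 scale (95% interval 0.19 to 1.21, adjusted p = 0.0226 from limma), and an exact permutation test gave p = 0.0281. The call was lost without KC sample 1 (log2 fold change 0.59, adjusted p = 0.0504) or MNC sample 6 (0.63, adjusted p = 0.0513), after rescaling to the median gene (0.51, adjusted p = 0.0993) and after quantile normalization (0.06, adjusted p = 0.886), within a range of 0.00290 to 0.886. Over the 160 genes above the background in all samples, the median log2 fold change was 0.13 as deposited, -0.06 after rescaling to the median and -0.19 after quantile normalization.

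Areg had 219 normalized counts in KC sample 1, from 168 molecules, and 239 in KC sample 6, from 113 molecules. In the other 4 KC samples it was under the background, listed at 9 to 14. In MNCs it was above the background in 2 of 6 samples, with 11.3 normalized counts in sample 2 and 16.4 in sample 4. Multiplied by the factor, the background of these 4 KC samples would be 17.5 to 30.4, so that their order against the MNC values is not known. The cell types were not distinguishable (log2 fold change 0.75, 95% interval -0.95 to 2.44, adjusted p = 0.409 from limma; exact permutation p = 0.446). Without KC samples 1 and 6, an alternative chosen after seeing the data, the log2 fold change was -0.63 (adjusted p = 0.0362), where all 4 remaining KC values are background values. With the background multiplied by the factors it was 1.80 (adjusted p = 0.0162, range over the alternatives 0.0162 to 0.807). Leaving out these KC samples also ended the call of Pdgfa, at 0.39 (adjusted p = 0.110), while Csf1 rose to 1.44, Flt1 to 2.27 and Csf2 stood at 1.11 (adjusted p = 0.0334).

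Csf1, Flt1, Pdgfa and Areg ran in different orders among the KC samples, and the sums of marker lists are given beside them. Csf1 and Flt1 were lowest in KC sample 1, which had the lowest sum of 10 macrophage and monocyte genes (6680.0), and highest in KC sample 4, with a sum of 11980. The highest sum, 12232, was that of KC sample 2, with 608 normalized counts of Csf1 and 84.1 of Flt1. Pdgfa and Areg were highest in KC samples 6 and 1, whose macrophage sums (6949 and 6680.0) and hepatocyte sums (7523 and 4497) were the lowest of the group. The sum of 10 T and NK cell genes was highest in the same samples (20218 and 37191, against 10759.5 to 15653), but by Ccl5 alone, a chemokine with 16703 and 33369 normalized counts in them and 6978 to 10134 in the other 4. Of the other 9 genes, 3 (Cd4, Cd40lg and Il18rap) were lowest in these samples, and others were not. Ifng had 330 and 338 normalized counts in KC samples 1 and 6, 374 in sample 3 and 263 to 291 in samples 2, 4 and 5. Fasl was highest in KC sample 1 (159) and had 125 in sample 6. Without Ccl5, an alternative chosen after seeing the data, the other 9 genes summed to 3822 in KC sample 1, 3515 in sample 6, 3782 in sample 4 and 4830 to 5519 in samples 2, 3 and 5. Most of this sum was Ltb, with 2061 to 3342 normalized counts in KCs. In MNCs, samples 2, 3 and 5, with 290 to 333 normalized counts of Csf1, had sums of 3528 to 3666 without Ccl5, and samples 1, 4 and 6, with 211 to 234, had 2073 to 3231. The macrophage and monocyte sums ran the other way, with 17424 to 19899 in MNC samples 2, 3 and 5 and 21230 to 27940 in samples 1, 4 and 6. The part of other cells in these values was not tested.

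**Figure D4:**
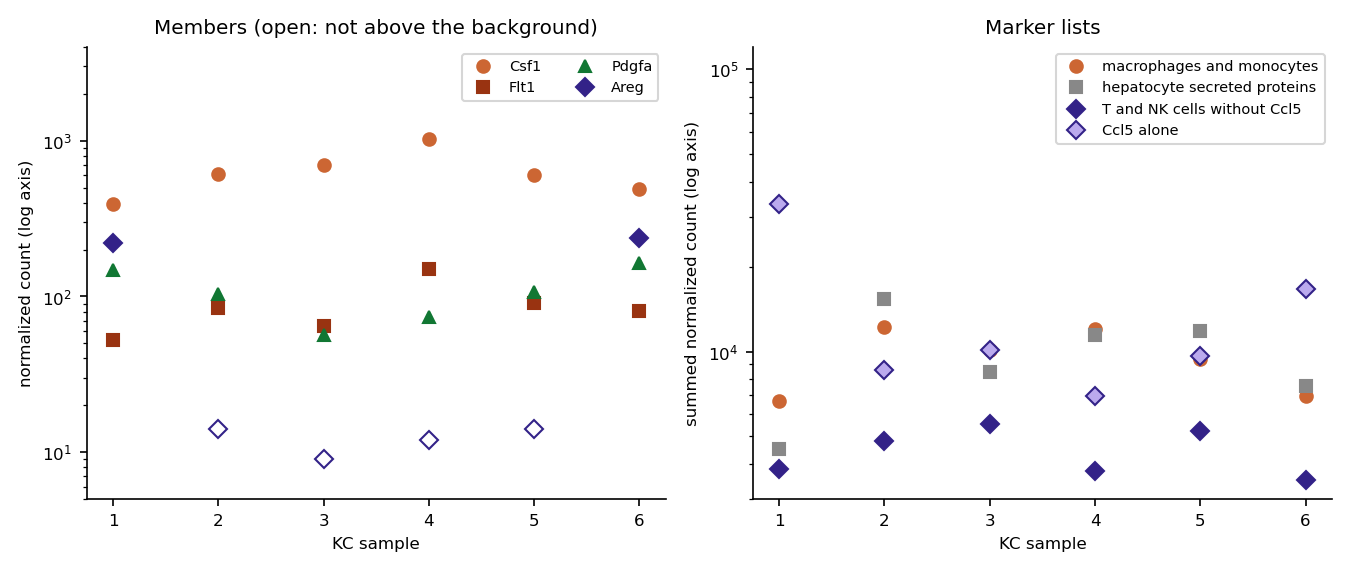
Left, normalized counts of Csf1, Flt1, Pdgfa and Areg in the 6 KC samples on a log axis, open where not above the background. Right, summed normalized counts of the 10 macrophage and 10 hepatocyte genes and of the T and NK cell list without Ccl5, with Ccl5 alone, also on a log axis. KC samples 1 and 6 are highest in Areg (219 and 239), Pdgfa and Ccl5 and lowest in the macrophage sum, while the T and NK cell sum without Ccl5 is 3822 and 3515 in them.

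Across the cell types, the T and NK cell genes summed to 4384 to 8521 in MNCs and to 10759.5 to 37191 in KCs. Without Ccl5 these sums were 2073 to 3666 and 3515 to 5519. In this list 7 of 10 genes were called higher in KCs and none lower, against 35.1% and 21.4% of all genes. None was at the background throughout a group, but Il2 and Il17a were at it in 5 of 6 MNC samples. The 10 genes of proteins secreted by hepatocytes summed to 63.1 to 270 in MNCs, where no sample was above the background in 7 of them, and to 4497 to 15348 in KCs, with all 10 called higher. The macrophage and monocyte genes summed to 17424 to 27940 in MNCs and 6680.0 to 12232 in KCs. Of these, Cd163 and Mrc1, scavenger and mannose receptors, were higher in KCs, 7 were lower and Ccr2 was not called, and Trem2, counted among the 7, was at the background in all 6 KC samples and in 4 of 6 MNC samples. With the background multiplied by the factors it was not called (adjusted p = 0.370 from limma). Of the platelet genes listed, Alox12 and Ptgs1 were measured, with sums of 690 to 780 in MNCs and 112 to 256 in KCs. Of the eosinophil genes, Ccr3 was higher and Alox15 lower in KCs. 7 of 10 genes known to respond early when cells are isolated were higher in KCs and Cxcl1 and Cxcl2 lower, and their sums were 9107 to 18530 in MNCs and 16377 to 30275 in KCs.

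The genes related to these factors by pathway were counted in the same fit. Of 12 genes of the relay below receptor tyrosine kinases, 5 were higher in KCs and none lower, a share near the 35.1% of all genes. Among those higher were Rps6ka5, a kinase late in this relay (log2 fold change 0.80, adjusted p = 0.00421), and Shc1, an adaptor of activated receptors (0.80, adjusted p = 3.24e-05). Shc1 had 303 ± 25.5 normalized counts in KCs and 174 ± 12.8 in MNCs, with no overlap. Mapk3, the gene of a kinase further down, rose by 0.42 (adjusted p = 0.0253). The calls of this list turned to 3 higher and 2 lower after rescaling to the median gene and to 2 higher and 3 lower after quantile normalization, and 3 were left without MNC sample 4 or MNC sample 6. The median log2 fold change was 0.21 over the list and 0.05 over all genes tested.

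Transcription factors known to act on the colony-stimulating factor genes were measured in 7 of 8 cases, and 2 were higher and 1 was lower in KCs. Of all genes, 35.1% were higher and 21.4% lower. The AP-1 genes Fos (3804 ± 950 normalized counts in MNCs and 14818 ± 3283 in KCs, log2 fold change 1.96, adjusted p = 1.07e-06) and Jun (log2 fold change 2.31, adjusted p = 8.75e-07) were higher. Both are also early response genes of cell isolation. Cebpb fell from 2985 ± 534 to 1087 ± 323 normalized counts (log2 fold change -1.48, adjusted p = 1.51e-05). In all 3 the cell types did not overlap, as in 41.5% of all genes. The NF-kB genes Nfkb1, Rela and Relb and the NFAT gene Nfatc3 were not called, with log2 fold changes of -0.12, 0.22, 0.23 and 0.09.

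Of 4 cytokines that induce Csf2 and Csf3, Tnf and Il17a were higher in KCs, as were 35.1% of all genes. Tnf had 49.9 ± 13.5 normalized counts in MNCs and 119 ± 23.2 in KCs (log2 fold change 1.26, adjusted p = 0.000118). Il17a, a product of T cells, was at the background in 5 of 6 MNC samples and had 29.8 to 97.8 normalized counts in KCs, a ratio of 2.69 with the larger background in each sample at it (adjusted p = 0.00561 from limma on the listed values). With the common floor its call was lost (adjusted p = 0.0910, the highest over the alternatives, of which the multiplied background gave the lowest). Il1a and Il1b were not called, with log2 fold changes of -0.99 and -0.65. Of 5 other cytokines of blood cell growth, Il3, Il5, Il7, Il9 and Il15, limma called 0, as did the exact permutation test, and 1 had an unadjusted p under 0.05. No sample was above the background in Il3 and Il9, and 1 of 12 was in Il5, which like Il3 acts through a receptor chain shared with CSF2.

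**Figure D5:**
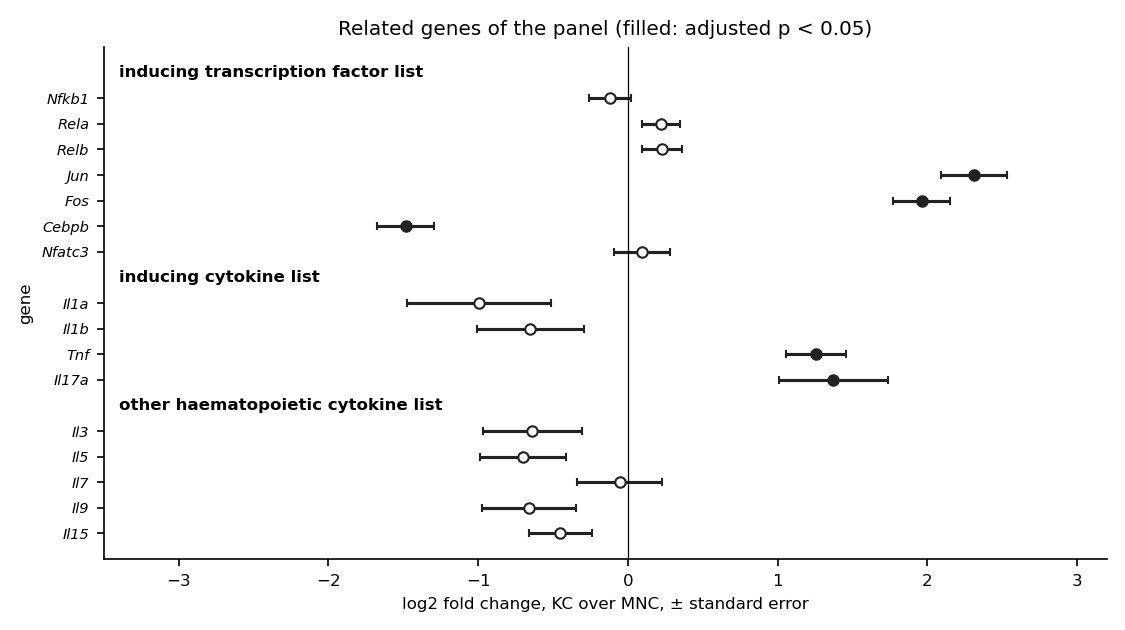
Log2 fold changes (KCs over MNCs) with standard errors of the related genes in 3 lists (transcription factors, inducing cytokines and other cytokines of blood cell growth), filled where the adjusted p from limma was under 0.05. Jun (2.31) and Fos (1.96) lie farthest to the right and Cebpb (-1.48) farthest to the left, and no gene of the last list is filled.

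The genes with the profile most like that of each member were found by the root mean square difference of log2 values over the 12 samples, after each gene was centred on its own mean. For Csf1 these were Map2k6 (0.27), Il18rap (0.28) and Cd40lg (0.30), against a median of 0.78 over all 193 candidates. Il18rap and Cd40lg also belong to the T and NK cell list. For Flt1 they were Mafg (0.50), Cfb (0.53) and Stat2 (0.55), with a median of 1.15. Flt1 was above the background in 7 of 12 samples, and 5 of its 6 MNC values were background values. Its distances thus rest in part on counts of negative controls. They also include the difference between the cell types. The log2 fold change was 2.09 for Flt1, 2.49 for Mafg, 1.51 for Cfb and 1.49 for Stat2. For Pdgfa the nearest genes were Mapk3 (0.28), Max (0.29) and Mapk8 (0.29), with a median of 0.71. Csf2, Csf3 and Areg were above the background in too few samples, 4, 1 and 4 of 12, for this comparison.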

How the data were processed

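The authors deposited a normalized signal for each gene, made in nSolver 4.0 from reporter counts of the nCounter Mouse Inflammation V2 panel with positive controls and housekeeping genes (geometric means) and the highest negative control as background. Values above the background proved to be whole multiples, within 0.02, of 1 factor per lane, by which they were divided to obtain counted molecules. Because the listed background had not been multiplied, no count model was used. The tests covered 248 genes and left out 4 housekeeping genes and all control probes (8 negative, 6 positive).

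Groups came from the sample titles. Cell types were compared by limma 3.58.1 (R 4.3.3) after taking log2(value + 1) (2 groups, no covariate, two-sided, as the methods compare them), with Benjamini-Hochberg adjustment over the 248 genes and a threshold of 0.05. The added 1 makes fold changes of low genes understate the change. Nothing states whether pools were independent beyond being separate samples, so that p-values measure the spread between these pools. The steps were tested on simulated data, in which only genes well above the background in MNCs were changed and checked. Csf2, Csf3, Flt1 and Areg, near the background there, were not covered by it. The genes, lists and tests were chosen with earlier results of these data known. Named are the 6 members, the up to 3 largest rises and falls called in each list, the 3 nearest profiles, the housekeeping genes and the markers. Mapk3 and genes not called are named in addition, and some genes under this rule are left unreported. The alternatives concerned the pseudocount (10 or 0.5), a filter on low genes, the scaling, the background, a replicate block, samples left out and the test. Promoters were read from RefSeq tables of GRCm38.p6. Tables, exact tests and figures were made with Python 3.11.15 and scipy 1.17.1, with pandas 2.3.3, numpy 2.4.6 and matplotlib 3.10.9. The other assays of the study were not analysed here.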

Additional observations from a re-analysis of the deposited data

How the results depend on the processing

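Csf1 and Flt1 kept their direction and their call under all 23 alternatives and Csf2 under all 22 that could be run for it, since Csf2, Csf3 and Areg do not pass the filter on genes above the background in 6 samples. That filter, the replicate block and the exact permutation test use the same log2 fold change, so that only the call could change. For Csf1 this also holds for the multiplied background and the common floor. Leaving out each sample in turn gave 1.05 to 1.33 for Csf1, 0.93 to 1.36 for Csf2, 1.90 to 2.22 for Flt1, 0.56 to 0.87 for Pdgfa, 0.18 to 1.10 for Areg and -0.95 to -0.58 for Csf3. In these fits 3 to 5 of the 6 genes were called, and 126 to 172 of all 248 genes. Pdgfa lost its call after rescaling to the median gene (0.51) and after quantile normalization (0.057). It also lost it without KC sample 1 (0.59), without MNC sample 6 (0.63) and without KC samples 1 and 6 together (0.39). Areg was called with the background multiplied by the lane factor (1.80) and turned to -0.63 without KC samples 1 and 6. Csf3 was called lower with a pseudocount of 10 (-0.45), after rescaling to the median (-0.87) and without MNC sample 2 (-0.95), KC sample 2 or KC sample 5 (-0.78 each), was 0.69 with the multiplied background and 0 with the common floor; nearly all of its values are background values by construction. The relay list had 3 to 6 calls with single samples left out, 3 higher and 2 lower after rescaling to the median, 2 higher and 3 lower after quantile normalization, and 5 higher and 1 lower with the replicate block. The inducing cytokines had 4 calls, 2 of them lower, after rescaling to the median or quantile normalization and 1 with the common floor, against 2, and 2 to 3 with single samples left out. The other haematopoietic cytokines, mostly at the background, had 1 call with a pseudocount of 10, 4 (all lower) after rescaling to the median, 5 (all higher) with the multiplied background, 1 without KC samples 1 and 6, and 0 to 4 with single samples left out, 4 of them without MNC sample 2.

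Samples of both cell types share numbers, but the labels do not say that a number marks a shared batch. The deviations of same-numbered samples correlated between -0.23 and 0.40 over 160 genes, and 2 of 6 MNC samples matched their own number best, so that the numbers were not taken to pair the samples. With the replicate block 132 genes were called in place of 140, the same number of the 6 genes, 4, was called, and the other haematopoietic cytokines had 1 call. The log2 fold changes stayed as they were (Csf1 1.21), as they must where each number occurs once per cell type.

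With 6 samples on each side the precision is limited, and the background adds a limit for Csf2, Csf3 and Areg and for Flt1 in MNCs.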

Other observations

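Among genes outside the lists, chosen after their values were seen, Ccl20 and Ltb4r2 had the same pattern as Areg among the KC samples. Ccl20, a chemokine that attracts CCR6-bearing cells, had 91.3 normalized counts in KC sample 1 and 178 in KC sample 6. Ltb4r2, a low-affinity leukotriene B4 receptor, had 78.3 and 90.9 in these samples. Both genes were at or under the background in the other 4 KC samples and in all 6 MNC samples. Areg, by contrast, was above the background in MNC samples 2 and 4. The correlation of log2 values across genes, which are not independent replicates, was 0.984 between KC samples 1 and 6 and 0.939 to 0.968 between either of them and the other KC samples.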
